A study of Rattus norvegicus with 20 samples.

Results

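Trimethylated lysine 9 (K9me3) was compared with dimethylated lysine 9 (K9me2) across the genes of the rat left ventricle. The comparison used 4 of the series' 20 arrays: the anti-K9me3 and the anti-K9me2 chromatin immunoprecipitates of a failed heart and of a normal heart, 1 array for each mark and heart, paired by heart. The failed heart was labelled congestive heart failure and the other normal; both were of Dahl rats, bred for their blood pressure response to salt, and all the arrays used for K9 were labelled 19 weeks of age. A high-sodium diet is named only in the label of the failed mRNA sample. One heart stood for each condition, so a difference between the hearts cannot be told apart from a difference between any 2 animals, and the labels name the lysine but not the histone that carries it. Each heart also had arrays for mRNA, for genomic DNA before immunoprecipitation (pre-IP) and for 6 other marks, which are used below beside the K9 arrays. The arrays were expression arrays: their probes lie in transcribed sequence, so a chromatin value describes the gene's transcribed part, not its promoter.

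Lysine 9 of histone H3 can carry up to 3 methyl groups. As background, K9me2 is laid down chiefly by Ehmt1 and Ehmt2 over broad silent domains of euchromatin, and K9me3 by Suv39h enzymes in constitutive heterochromatin and by Setdb1 at repeats and at clusters of zinc finger genes. Heterochromatin protein 1 (the Cbx proteins) binds both states, and Kdm3 and Kdm4 enzymes remove them. In mammalian cells K9me3 has also been described within the bodies of some transcribed genes.

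Levels are intensities scaled to a median of 100 on each array, and a difference is log2 K9me3 minus log2 K9me2 of the same heart, so that a positive value means more signal with K9me3 and 1 means 2-fold. Of 14217 measured genes, 6881 had a mean level over the 4 K9 arrays at or above the array median and were tested. The defining markers of ventricular muscle were high: of 6 chosen markers 5 were measured, and their mRNA levels ran from 6692 to 38410 in the failed heart and from 4227 to 41340 in the normal heart. Markers of other cells were present as well. The median mRNA level of the tested fibroblast markers (7 of 11 measured) was 8257 in the failed heart and 2394 in the normal heart. That of the tested macrophage and leukocyte markers (6 of 13) was 379 and 183. Markers under the level filter of the K9 arrays are left out of these medians. Chromatin of all these cells was measured together, so that more cells of a type and more signal in each cell cannot be told apart; their part in the results was not tested.

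Some genes favoured K9me3, and fewer favoured K9me2, in both hearts. Developmental transcription factors and zinc finger genes were called higher with K9me3 more often than all genes were, and Prkca, Klf2 and Atp2a2 were among the expressed genes called. Genes higher with K9me2, such as Madcam1, Gli2 and Tp63, were mostly of low mRNA, and no list examined held more than 2 of them. limma called 295 genes (4.29% of those tested) higher with K9me3 and 131 (1.9%) higher with K9me2 at an adjusted p under 0.05, taking the heart as a block; over all 15081 tested probe sets the calls were 611 (4.05%) and 336 (2.23%). Differences of at least 2-fold with the same sign in both hearts were found at 352 genes (5.12%) for K9me3 and at 223 genes (3.24%) for K9me2. By contrast, 24 genes (0.349%) were 2-fold apart in opposite directions in the 2 hearts. Across the tested genes Pearson's r between the failed and the normal heart's difference was 0.52, as a description, since genes are not replicates and both hearts share the probes. Because each heart is a single specimen, the spread behind these p-values comes from the disagreement between a failed and a normal heart's difference. limma took each probe set's spread mostly from other probe sets of like level (17.4 prior degrees of freedom beside 1 residual). A p-value or standard error is therefore not a measure of how well the hearts agreed at that gene.

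The counts depended on the scaling, the filter, the block and the arrays in the fit. With the values as deposited, 1158 probe sets were called higher with K9me3 and 1060 with K9me2, a share of 52.2% for K9me3 against 64.5% above, and without the level filter limma called 0 probe sets either way (3166 and 2459 at an unadjusted p under 0.05). With no replicate block 266 and 75 probe sets were called, and with all 16 chromatin arrays in the fit 1184 and 848. The 2-fold counts held to within 1.5 times under each scaling and floor tried.

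**Figure D1:**
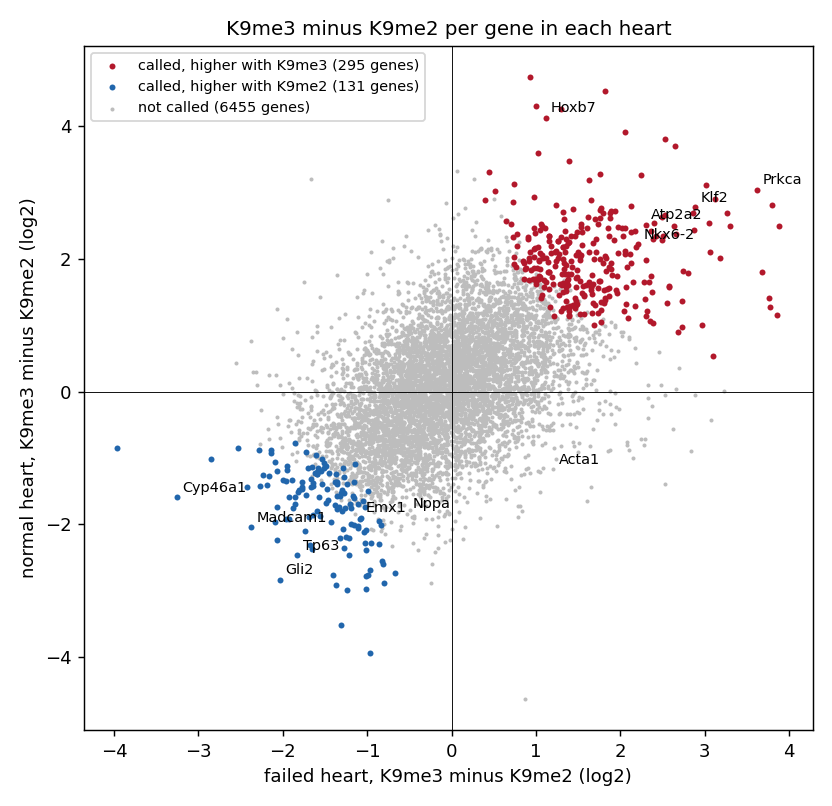
Each point is a tested gene, with K9me3 minus K9me2 (log2) in the failed heart on the horizontal axis and in the normal heart on the vertical axis. The 295 genes called higher with K9me3 (red) lie at the upper right and the 131 called higher with K9me2 (blue) at the lower left; Acta1 lies on opposite sides of 0 in the 2 hearts.

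Prkca, protein kinase C alpha, a calcium-dependent kinase that restrains contractility in mouse heart, came first when genes were ranked by the smaller of the 2 hearts' differences. Its K9me3 level was 1099 in the failed heart and 1249 in the normal heart, and its K9me2 level was 89.3 and 152. Both K9me3 arrays lay far above both K9me2 arrays, by 3.33 ± 0.36 (limma's standard error, 2 hearts), which is 10.1-fold (adjusted p = 0.00041). Klf2, an endothelial transcription factor induced by shear stress, had K9me3 levels of 470 and 530 in the failed and the normal heart and K9me2 levels of 63.6 and 77.3, a difference of 2.83 ± 0.39 (adjusted p = 0.0010). Klf2 also shows the limit of a single probe set: of its other 4 probe sets, 1 passed the test in the same direction (1.39 and 2.12, adjusted p = 0.025), and another had -0.49 in the failed heart and 0.39 in the normal heart. Atp5po, a stalk subunit of mitochondrial ATP synthase, had K9me3 levels of 220 and 554 and K9me2 levels of 15.8 and 78.6 (3.31 ± 0.46, adjusted p = 0.0010). A second, dimmer probe set of it gave 3.20 in the failed heart and -0.62 in the normal heart.

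The 10 genes with the largest K9me3 excess were ranked by the smaller of the 2 hearts' differences. The rest of them included Leng1, the zinc finger genes Zfp709l1 and Zfp180, and the arginine- and serine-rich protein gene Rsrp1. The splicing factors Srsf11 and Srsf1 and Sec24c, a coat protein of vesicles leaving the endoplasmic reticulum, completed the 10. The differences of the rest ran from 2.52 to 3.70 in single hearts, and all 10 were called. Over the 10 genes K9me3 levels ran from 139 to 1249 and K9me2 levels from 15.8 to 152. In each gene both K9me3 arrays exceeded both K9me2 arrays. Zfp180 had a second probe set that was also called, with 2.10 in the failed heart and 2.78 in the normal heart, as did Rsrp1 with 1.71 and 3.53. A second probe set of Srsf11 gave -0.34 and 0.46, and that of Leng1 gave 0.46 and 1.10.

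The K9me2 side was ranked by size in the same way, and RatNP-3b, a defensin of rat neutrophils, came first. Its K9me3 level was 46.8 in the failed heart and 52.4 in the normal heart, and its K9me2 level was 196 and 247. K9me2 was thus higher in both hearts, by 2.15 ± 0.45 on the log2 scale or 4.45-fold (adjusted p = 0.012). Defensin genes are near-copies of each other, so which copy the signal came from is uncertain. Madcam1, the mucosal vessel address for lymphocytes, had K9me3 levels of 46.6 and 53.1 and K9me2 levels of 242 and 219, a difference of -2.21 ± 0.45 (adjusted p = 0.0094). Gli2, the transcriptional effector of Hedgehog signalling, had K9me3 levels of 81.8 and 33.9 and K9me2 levels of 335 and 241 (-2.43 ± 0.44, adjusted p = 0.0044). Then came Mmp10, a matrix metalloproteinase, B3gat1, which makes the HNK-1 sugar of neural cells, Slc17a4, an anion transporter of the gut, Tp63, the p53 relative that specifies stratified epithelium (its second probe set gave -0.38 and -0.91), Uck2, a uridine-cytidine kinase, Clcn1, the chloride channel of skeletal muscle, and Cd164l2. All 10 were called, with differences of -1.74 to -2.83 in single hearts. In 9 of the 10 both K9me2 arrays exceeded both K9me3 arrays; at Uck2 the failed K9me3 level of 330 was above the normal K9me2 level of 317, while the order held within each heart. The mRNA levels of these genes were between 10 and 164 in the failed heart except for Uck2 at 221, and between 10 and 157 in the normal heart, where 100 is the array median and 10 the lowest value kept.

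**Figure D2:**
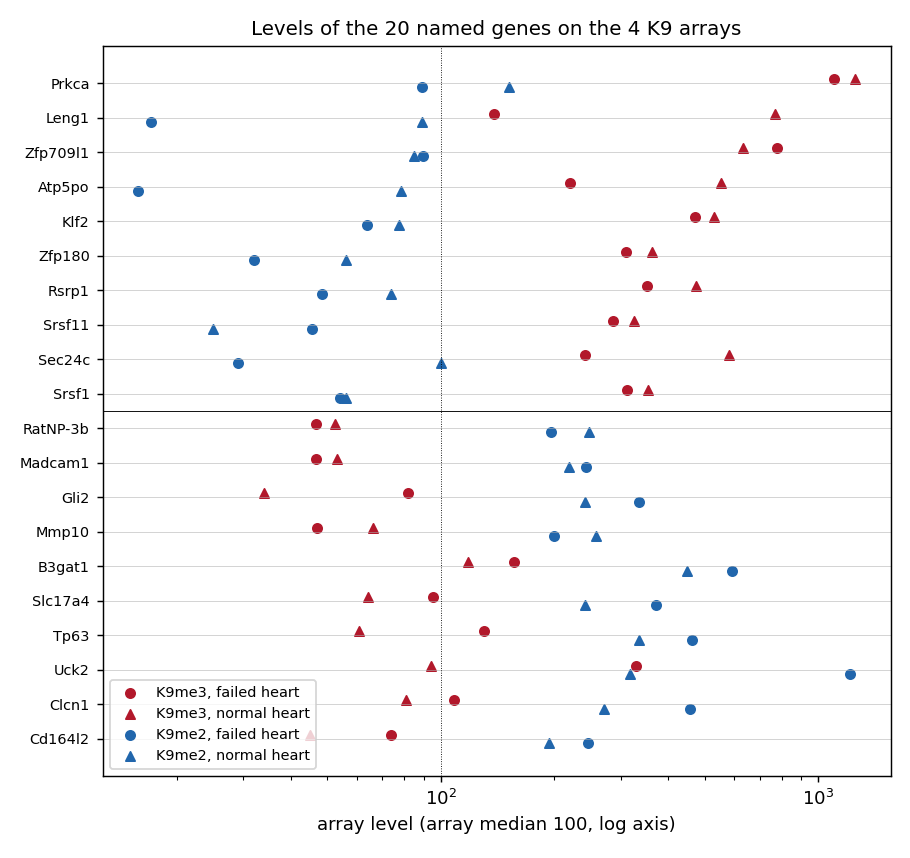
Levels (horizontal log axis, array median 100, dotted line) of the 10 genes with the steadiest K9me3 excess (top) and of the 10 with the steadiest K9me2 excess (bottom) on the K9me3 (red) and K9me2 (blue) arrays of the failed heart (circles) and the normal heart (triangles). Prkca stands at 1099 and 1249 with K9me3 against 89.3 and 152 with K9me2, and Uck2 is the gene whose K9me3 and K9me2 points overlap.

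The promoters of the leading genes with an entry in the reference are shown because promoter CpG content differed between genes favouring each state, as given below. The sequences are those of RefSeq on the GRCr8 build, from 250 bases before to 50 bases after the start of transcription, with CG in capitals.
Prkca, chr10:93787278-93787577, minus strand: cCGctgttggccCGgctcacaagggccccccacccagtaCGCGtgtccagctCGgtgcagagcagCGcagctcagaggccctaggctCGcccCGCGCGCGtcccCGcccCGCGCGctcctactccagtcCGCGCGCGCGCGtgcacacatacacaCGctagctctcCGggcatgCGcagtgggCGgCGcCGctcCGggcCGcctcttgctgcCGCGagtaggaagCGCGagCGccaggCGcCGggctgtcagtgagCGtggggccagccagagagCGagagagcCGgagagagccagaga
Leng1, chr1:74467093-74467392, plus strand: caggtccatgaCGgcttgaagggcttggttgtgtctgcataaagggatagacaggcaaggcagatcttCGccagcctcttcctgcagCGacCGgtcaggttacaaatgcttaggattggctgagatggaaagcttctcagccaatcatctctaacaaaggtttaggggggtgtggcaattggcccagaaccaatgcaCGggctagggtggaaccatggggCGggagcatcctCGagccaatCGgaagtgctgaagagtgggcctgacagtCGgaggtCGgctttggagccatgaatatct
RatNP-3b, chr16:77248928-77249227, minus strand: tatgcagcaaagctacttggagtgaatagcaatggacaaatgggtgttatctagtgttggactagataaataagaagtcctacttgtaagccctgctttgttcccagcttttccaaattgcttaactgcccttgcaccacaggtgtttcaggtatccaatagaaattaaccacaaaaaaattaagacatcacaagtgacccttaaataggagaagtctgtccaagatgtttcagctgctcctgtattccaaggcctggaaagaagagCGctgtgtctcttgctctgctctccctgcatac
Madcam1, chr7:10690273-10690572, minus strand: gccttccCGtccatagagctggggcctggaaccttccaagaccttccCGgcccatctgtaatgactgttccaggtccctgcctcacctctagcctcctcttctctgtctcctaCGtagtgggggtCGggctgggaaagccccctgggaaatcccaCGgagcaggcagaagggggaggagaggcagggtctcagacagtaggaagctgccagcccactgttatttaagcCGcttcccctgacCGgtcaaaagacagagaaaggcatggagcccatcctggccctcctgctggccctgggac
CG was searched on the letters as printed, which is the same on either strand. The Prkca window held 39 CG, a number that 3.995% of all 27457 promoter windows reach, and the Leng1 window held 10, which 44.1% reach. The RatNP-3b window held 1, as 94.8% of windows do or exceed, and the Madcam1 window held 7, the median over all windows. The arrays did not measure these windows.

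The developmental regulators stood out on the K9me3 side. The list of homeobox, Pax, Sox and Fox transcription factors also held Neurod, Neurog and Tbx genes. Many of these factors pattern the embryo and are silent in adult muscle. The list had 141 measured members, 79 of them tested. Of these 22 (27.8%) were higher with K9me3, where 4.29% of all tested genes were, and 1 was higher with K9me2 (1.27%, against 1.9% of all). The median difference was 0.59 in the failed heart and 0.98 in the normal heart, beside -0.08 and 0.08 over all tested genes. Nkx6-2, a homeobox gene of the developing nervous system, had K9me3 levels of 1059 in the failed heart and 1344 in the normal heart and K9me2 levels of 229 and 289. The difference of 2.21 in the failed heart and 2.22 in the normal heart was nearly the same (adjusted p = 0.0022). Foxd3, a neural crest factor, had K9me3 levels of 431 and 385 and K9me2 levels of 94.9 and 84.7 (adjusted p = 0.0042). Otx1, Pax2, Dlx1, Pou3f3, Isl2 and Sox2, regulators of brain, kidney and stem cells, were also called, at 1.41 to 2.72 in single hearts; Sox2 lost its call with the mean over its probe sets (1.32, adjusted p = 0.060), and another of its probe sets gave 0.07 and 0.52. The exception was Emx1, a cortical homeobox gene, which was higher with K9me2 (-1.08 and -1.90, adjusted p = 0.045).

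The families within that list were taken apart after the values were seen. Of the Hox genes, which set position along the body axis, 12 of 22 were tested and 11 of the 12 lay above 0 in both hearts, where 33.6% of all tested genes did; Hoxb7, Hoxc8, Hoxc9, Hoxd8 and Hoxd11 were called, and the median was 1.45 in the failed heart and 1.16 in the normal heart. Hoxb7 showed how far the hearts could differ: 1.11 in the failed heart and 4.13 in the normal heart. Of the forkhead genes 6 of 17 tested were called (35.3%), and of the Sox genes 3 of 7 (42.9%). Over all tested genes 4.29% were. Because these families were picked after the values were seen, their counts are a description only. Most of the called regulators had low mRNA, such as Nkx6-2 at 10 in the failed heart and 18.8 in the normal heart. Irx4, a homeobox gene of ventricular muscle, was called with mRNA levels of 1372 and 1017, and Sox18, an endothelial factor, with 505 and 394. The median mRNA level of the list's tested members was 37.6 in the failed heart and 42.3 in the normal heart, beside 234 and 209 over all tested genes.

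Numbered zinc finger genes, many of which encode KRAB repressors that lie in clusters, were the other family with many K9me3 calls. Of 247 measured members 109 were tested, 17 (15.6%) were higher with K9me3 and 1 (0.917%), Zfp474, was higher with K9me2. The family median was 0.20 in the failed heart and 0.23 in the normal heart, so the calls lay in a subset of its members. Zfp110 had K9me3 levels of 766 in the failed heart and 1164 in the normal heart and K9me2 levels of 162 and 121 (adjusted p = 0.0011). Zfp382 had K9me3 levels of 986 and 744 and K9me2 levels of 233 and 204, with an mRNA value at the floor of 10 in both hearts. Zfp386 was called as well, with mRNA levels of 1571 and 2734. Calls thus fell on zinc finger genes of low and of high mRNA. Members of the family resemble each other in sequence, and whether probes of one read DNA of another was not tested.

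Further K9me3 calls fell on splicing factors and rapid response genes. The SR splicing factors, a family chosen after Srsf1 and Srsf11 had been seen, had 6 of 10 genes tested. Srsf1, Srsf2, Srsf4 and Srsf11 were called, Srsf5 had 1.02 in the failed heart and 0.66 in the normal heart without passing, and Srsf7 had -1.08 and -0.37. Since Srsf1 and Srsf11 led to the choice, the family count supports nothing: of the other 4 tested genes 2 were called. Srsf2 had K9me3 levels of 1432 and 1624 and K9me2 levels of 252 and 321 (adjusted p = 0.0010). Of the immediate early and stress genes, which switch on within minutes of a stimulus, 17 of 28 were tested and 13 lay above 0 in both hearts, as did 33.6% of all tested genes. The median was 0.79 in the failed heart and 0.96 in the normal heart. Klf2, Ier2 and the phosphatase gene Dusp1 were called (17.6%, against 4.29% of all) and none was higher with K9me2, but Klf2 lost its call with the mean over its probe sets (1.27, adjusted p = 0.066). Ier2 had K9me3 levels of 361 and 375 and K9me2 levels of 67.2 and 73.6. Both states were below pre-IP at these genes, K9me2 by more: the list's median was -0.66 and -0.27 for K9me3 and -1.27 and -1.40 for K9me2 in the failed and the normal heart. Of 8 tested class I and II MHC genes, which present antigens, RT1-T24-4 and RT1-CE16 were called higher with K9me3; as near-copies of other MHC genes they are uncertain.

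Genes of the heart's own work showed a mixed pattern. Atp2a2, the calcium pump of the sarcoplasmic reticulum, had K9me3 levels of 215 in the failed heart and 391 in the normal heart and K9me2 levels of 43.7 and 68.3. The difference of 2.41 ± 0.42 passed the test (adjusted p = 0.0040), with mRNA levels of 25470 and 15280. Another tested probe set of Atp2a2 was also called (1.78 and 2.63, adjusted p = 0.0061). A further one gave 0.88 and 1.40 (adjusted p = 0.089) and the last tested one -0.55 and 1.43 (adjusted p = 0.59). By contrast S100a1, a calcium sensor that acts on the same pump, was higher with K9me2 (-1.15 and -1.61, adjusted p = 0.039). Of 13 tested calcium handling genes these were the 2 called, and the list's median was -0.54 in the failed heart and -0.41 in the normal heart. Of 14 sarcomere genes Tnnc1, cardiac troponin C, was higher with K9me3 (1.33 and 2.18, adjusted p = 0.016) and Actn1, an alpha-actinin that is not the sarcomeric form, with K9me2 (-0.86 and -1.95, adjusted p = 0.048). The sarcomere median was 0.21 in the failed heart and 1.08 in the normal heart, with 7 of the 14 above 0 in both hearts. Of the other genes chosen for heart failure none passed: Nppa, atrial natriuretic peptide, had -0.52 in the failed heart and -1.84 in the normal heart, Nppb had 0.55 and 0.62, Myh6 had 0.44 and 1.52, and Postn, a matrix protein of injured heart, had 0.23 and -0.13. The probe set that represents Myh7, the slow myosin heavy chain, did not reach the level filter. Its other probe set was tested and gave -0.25 and 0.95 without passing (adjusted p = 0.63).

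Of 71 tested respiratory chain and ATP synthase genes, 3 (4.23%) were higher with K9me3, namely Atp5po, Atp5mg and Atp5mc3, which is the share of all tested genes. The list's median was 0.09 in the failed heart and 0.72 in the normal heart. The mitochondrial ribosomal genes had 5 of 53 called (9.43%) and medians of -0.20 and 0.37, a pair on opposite sides of 0. Over all 73 measured members the medians were 0.10 and 0.44, both above 0. Of 18 fatty acid oxidation genes, the dehydrogenase gene Acadl and the fatty acid transporter Cd36 were higher with K9me3 and Ehhadh, a peroxisomal enzyme, with K9me2; the medians were 0.27 and 0.99. Ehhadh had an mRNA value at the floor of 10 in both hearts, while Acadl stood at 8478 and 2624.

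Several families had medians on the K9me2 side in both hearts, but few of their members passed the test, and the share called, beside 1.9% of all tested genes, was based on 0 to 2 genes in each. Of 48 tested neurotransmitter receptor genes 29 lay below 0 in both hearts and 6 above, with medians of -0.64 in the failed heart and -0.46 in the normal heart. Gria1, an AMPA receptor subunit, was the 1 member called, with K9me3 levels of 111 and 107 and K9me2 levels of 379 and 290 (adjusted p = 0.023). Potassium channel genes had 22 of 39 below 0 in both hearts, and the voltage-gated channels Kcnh1 and Kcnc4 were called. Of 27 cytochrome P450 genes 17 lay below 0 in both hearts and Cyp46a1, the cholesterol hydroxylase of neurons, was called. Its K9me3 levels were 96.6 in the failed heart and 121 in the normal heart and its K9me2 levels 918 and 364 (-3.25 and -1.59, adjusted p = 0.0037). Keratins, the filaments of epithelia, had 10 of 16 below 0 in both hearts and medians of -0.67 and -0.47, with 0 called (Krt33b had -1.14 and -1.39, adjusted p = 0.057). Of 46 chemokine and interleukin genes Il1b and Ccl20 were called higher with K9me2, and Serpini2 was called among 11 serpin and kallikrein genes. The called shares were 2.08% for neurotransmitter receptors, 5.13% for potassium channels, 3.7% for P450 genes, 4.35% for chemokines and interleukins and 9.09% for serpins and kallikreins. Over all tested genes 34.2% lay below 0 in both hearts and 33.6% above. The calcium handling genes, which the heart uses, leaned the same way, with 7 of 13 below 0 in both hearts. Collagen genes had medians of -0.29 and -0.27 and 0 of 21 called.

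**Figure D3:**
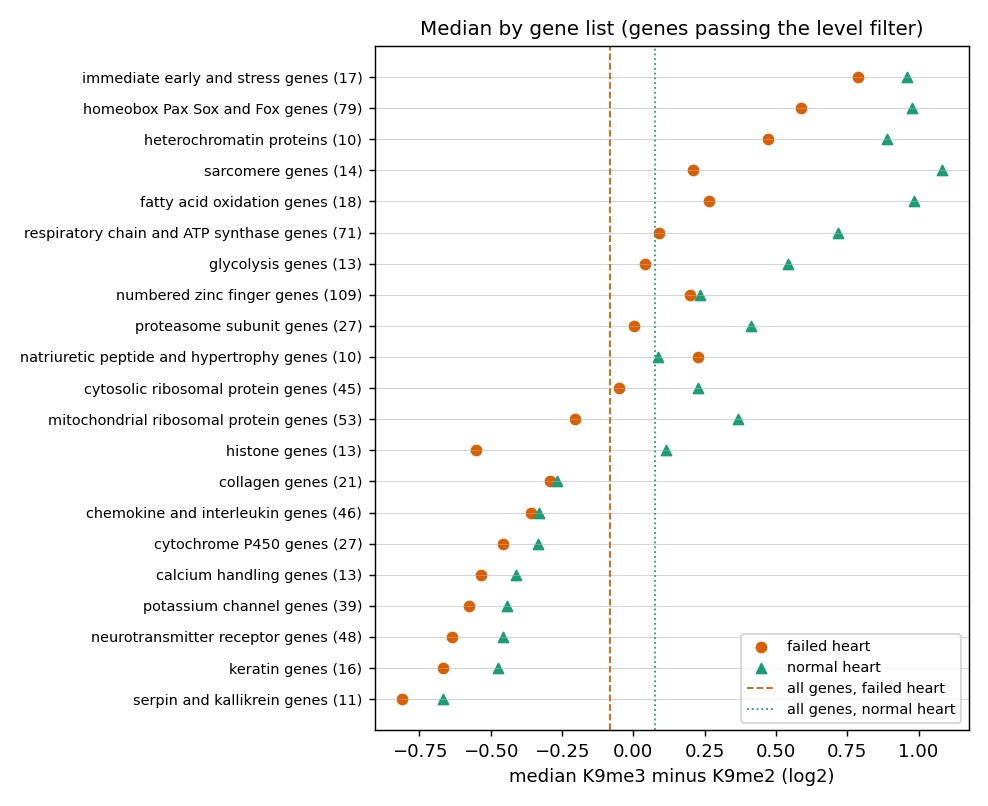
Median K9me3 minus K9me2 (log2, horizontal axis) of the tested members of each list with 10 or more of them (number in brackets), in the failed heart (circles) and the normal heart (triangles); vertical lines are the medians over all tested genes, -0.08 and 0.08. Stress and developmental genes lie at 0.59 to 0.98 in both hearts, sarcomere genes at 0.21 in the failed heart and 1.08 in the normal heart, and serpin, keratin and neurotransmitter receptor genes at the K9me2 end.

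The genes of the K9 machinery itself did not share a direction. Of 9 measured K9 methyltransferase genes 2 were tested and 0 called: Ehmt2 had 0.30 in the failed heart and 1.14 in the normal heart and Setmar had -1.22 and -0.55. Of 11 demethylase genes 4 were tested, and Jmjd1c, a member of the Kdm3 family, was higher with K9me3 at the probe set that represents it. It had K9me3 levels of 211 and 200 and K9me2 levels of 54.8 and 69.5, so that both K9me3 arrays were above both K9me2 arrays by 1.73 ± 0.44 (adjusted p = 0.029). Its other probe set gave -0.48 and -0.05, and with the mean over probe sets Jmjd1c was no longer called (0.74, adjusted p = 0.22). Kdm1a had 1.28 and 0.33, Kdm4b had -0.17 and -0.36, and Hspbap1, a protein with a JmjC domain, had 1.24 in the failed heart and -1.02 in the normal heart. Of 16 genes of heterochromatin proteins 10 were tested and 0 called, with medians of 0.47 and 0.89. Trim28, the corepressor that brings Setdb1 to zinc finger repressors, had 0.49 and 0.56, and Mbd1, which binds methylated DNA, had 1.45 and 0.96 (adjusted p = 0.10).

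The K9 difference was then set against the like difference on lysine 4, K4me3 minus K4me2, in one fit of 8 arrays, to see at which genes the K9 difference departed from it. It was higher on K9 at 536 genes (7.79%) and lower at 189 genes (2.75%). The split rested on the scaling: the fit gave 273 higher and 682 lower with the values as deposited, and 147 and 187 after quantile normalization. Klf2 had a K9 difference above its K4 difference by 4.19 ± 0.52 (adjusted p = 0.0014), Sec24c by 4.68 ± 0.67 (adjusted p = 0.0020) and Srsf1 by 3.73 ± 0.48 (adjusted p = 0.0014). At Prkca the excess was 1.57 ± 0.53 and did not pass (adjusted p = 0.068). Of the immediate early and stress genes 11 of 17 were higher on K9 and none lower, with 9 under the deposited scaling and 7 after quantile normalization. The developmental regulators had 16 of 79 higher and 1 lower, with 13 and 4 as deposited and 10 and 1 after quantile normalization. The zinc finger genes had 3 of 109 higher and 0 lower, with 0 and 4 as deposited and 4 and 1 of 110 after quantile normalization, so their place beside all genes depended on the scaling. The 15 of 71 respiratory chain genes that were higher on K9 became 6 as deposited and 1 after quantile normalization.

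Expressed genes had more K9me3 relative to K9me2 in both hearts. Levels of different genes come from different probes, so any order of genes by mRNA level carries probe effects as well. Across all 14217 genes Spearman's rho between the difference and the mRNA level of the same heart was 0.26 in the failed heart and 0.31 in the normal heart. With genes split into 10 equal groups by mRNA level, the median difference was -0.34 in the lowest group and 0.32 in the highest in the failed heart, and -0.43 and 0.58 in the normal heart. The quartiles of neighbouring groups overlapped widely. Of the 295 genes higher with K9me3, 81.4% had an mRNA level at or above the array median in the failed heart and 80.3% in the normal heart. Of the 131 higher with K9me2 29.8% and 35.1% did, and of all tested genes 69.5% and 68.6%. Their median mRNA levels were 586 and 482 for K9me3, 57.9 and 44.3 for K9me2, and 234 and 209 over all tested genes.

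Relative to pre-IP, the relation of K9me2 with mRNA was larger in size than that of K9me3. The rho of K9me2 over pre-IP with mRNA was -0.17 in the failed heart and -0.23 in the normal heart, and that of K9me3 over pre-IP was 0.06 and 0.10. The plain levels gave another picture: rho with mRNA was 0.23 and 0.27 for the K9me3 level, 0.0085 and 0.0024 for the K9me2 level, and 0.18 and 0.21 for the pre-IP level, in which no antibody was used. The pre-IP level thus moved with mRNA too, and its part in these relations was not tested beyond a split: within 5 groups of tested genes by pre-IP level, rho of the K9 difference with mRNA was between 0.22 and 0.40 in every group of both hearts. Within 5 groups by promoter CpG it was between 0.22 and 0.39. Both splits were added after the data were seen. For K4me3 minus K4me2 rho with mRNA was -0.11 and -0.10.

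**Figure D4:**
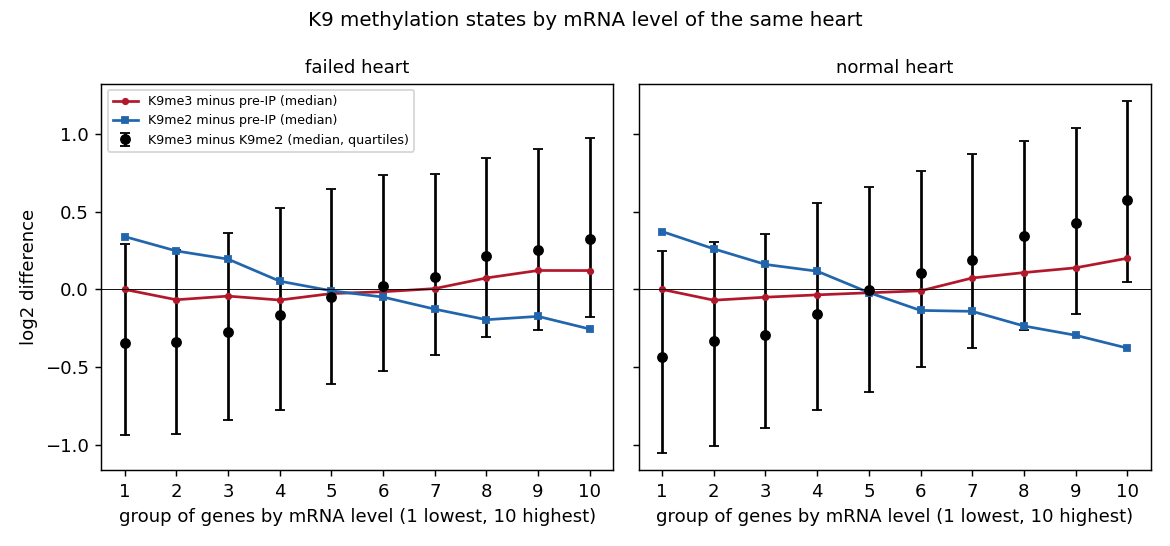
Genes in 10 equal groups by mRNA level of the same heart (horizontal axis), failed heart on the left and normal heart on the right; black points are the median K9me3 minus K9me2 with bars for the quartiles, and lines are the medians of K9me3 (red) and K9me2 (blue) minus pre-IP, in log2. The median difference runs from -0.34 to 0.32 over the groups of the failed heart and from -0.43 to 0.58 over those of the normal heart.

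The failed and the normal heart did not show a matching shift of the K9 states where mRNA differed. Across all genes rho between the failed minus normal change of the K9 difference and that of mRNA was 0.0068, and 0.024 over the tested genes. Among genes above the level filters of both assays, 576 had at least 2-fold more mRNA in the failed heart and 127 at least 2-fold less. The median change of the K9 difference was -0.07 in the first set and -0.23 in the second, beside -0.22 over all 4719 such genes. Each of these changes comes from single arrays, with no replicate check.

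The other marks gave a further view of the called genes, though every mark minus pre-IP shares the same pre-IP array. At the 295 genes higher with K9me3, K9me3 was 0.35 above pre-IP in the failed heart and 0.57 in the normal heart by the median, and K9me2 was -1.20 and -1.23. These 2 marks chose the genes, so their values are a description. K27me2, a mark of broad silent chromatin, was also low there, at -0.87 and -0.67, as was K20me3 at -0.37 and -0.41. At the 131 genes higher with K9me2, K9me2 was 1.37 and 1.002 above pre-IP, K27me2 0.47 and 0.27, and K20me3 0.51 and 0.28, while K9me3 was -0.20 and -0.69. Across all genes rho of the K9 difference with K27me2 over pre-IP was -0.20 and -0.22, and with acetylated H4 over pre-IP 0.14 and 0.14. The normal H4ac value carries a doubt, since 1 field of that sample's label names pre-IP DNA as the source and the others name acetylated H4. The median pre-IP level was 235 and 244 at the genes higher with K9me3, 131 and 139 at those higher with K9me2, and 154 and 158 over all tested genes, and its part in the medians above was not tested. Without pre-IP, the median K27me2 level was 144 and 159 at the K9me3 genes, 193 and 171 at the K9me2 genes, and 153 over all in both hearts. The order of K27me2 was then the same in the failed heart, while in the normal heart the K9me3 genes lay above all genes. The plain K20me3 level put the K9me3 genes above all genes, while the K9me2 genes stayed above all genes as well. It was 191 and 192 at the K9me3 genes, 194 and 169 at the K9me2 genes, and 158 and 157 over all tested genes.

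**Figure D5:**
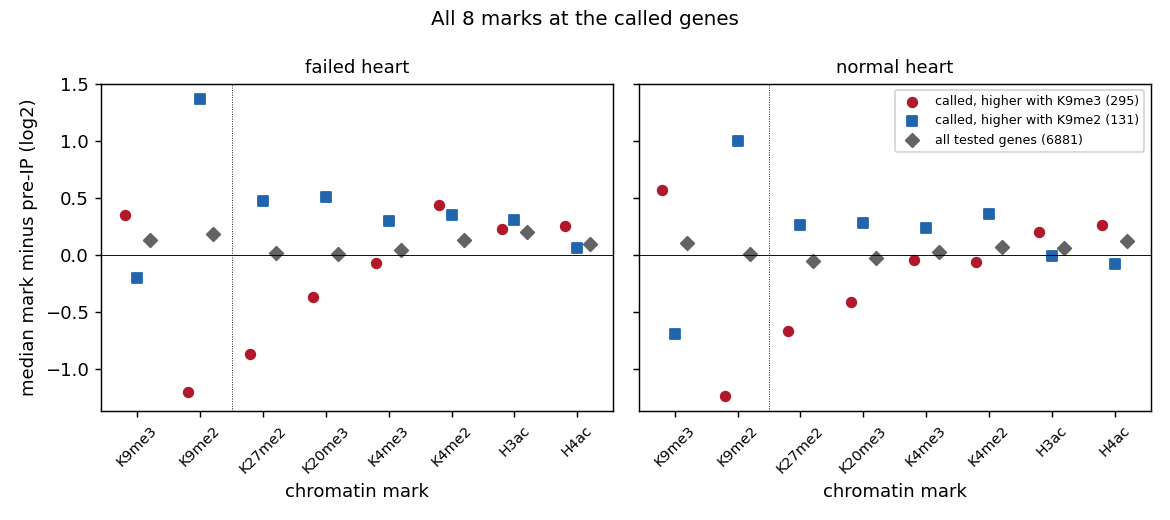
Median mark minus pre-IP (log2, vertical axis) of each of the 8 marks at genes higher with K9me3 (red), higher with K9me2 (blue) and all tested genes (grey), failed heart on the left and normal heart on the right. K27me2 and K20me3 lie below 0 at the red genes (-0.87 and -0.37 in the failed heart) and above 0 at the blue genes (0.47 and 0.51), but without pre-IP the K20me3 level is higher at the red genes than over all genes (191 and 158 in the failed heart); K9me3 and K9me2, left of the dotted line, chose the genes.

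Promoter sequence and gene length, neither of which was used in the calls, also went with the K9 states. In 5 equal groups of tested genes by promoter CpG observed over expected, the share higher with K9me3 was 1.93% in the group of lowest CpG and 4.31%, 4.75%, 4.66% and 4.83% in the next ones. The share higher with K9me2 was 4.57%, 2.29%, 0.967%, 0.88% and 1.05% from low to high CpG. The median difference was -0.42 in the lowest group and 0.08 in the highest in the failed heart, and -0.31 and 0.29 in the normal heart. Median mRNA also increased over these groups, 84.7 in the lowest and 388 in the highest in the failed heart. A promoter was found for 82.7% of tested genes but for 79.0% of those called with K9me3, so no promoter median over the called genes is given. By gene length in 5 groups from short to long, the share higher with K9me3 was 6.92%, 5.03%, 4.08%, 3.28% and 2.11%, and that higher with K9me2 was 1.53% in the shortest group and 3.06% in the longest. The median length was 12600 bases at genes higher with K9me3, 29910 at those higher with K9me2 and 21470 over all tested genes; Prkca, at 398627 bases, is long for the first set. The medians of 21 chromosomes lay between -0.18 and 0.06 in the failed heart and between -0.07 and 0.21 in the normal heart.

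How far a call speaks for the whole gene is limited. Of 181 genes with 2 tested probe sets of which at least 1 was called, 157 had both on the same side of 0, both were called the same way in 24, and in 1 they were called in opposite directions. Over the 1742 genes with 2 tested probe sets Pearson's r between the 2 was 0.45.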

How the data were processed

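mRNA, pre-IP DNA and chromatin immunoprecipitates of 2 hearts were measured on 20 expression arrays. Per the labels' protocols, RNA was converted to labelled cDNA and DNA was fragmented and amplified by T7 transcription. Each deposited value is a linear intensity of 1 probe set on 1 array; there were 31099 probe sets, 57 of them controls. After removal of 2% of values at each end, every array's mean was close to 500.1, a scaling present in the deposited values; the summarising tool was not given in these sources. As deposited, medians ran from 383 to 415 on the 4 K9 arrays. All arrays were brought to a median of 100 and floored at 10 before taking log2. Precision is limited by the number of arrays.

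limma 3.58.1 (R 4.3.3; lmFit, then eBayes with trend) was fitted to the 4 K9 arrays with mark and heart as terms, leaving 1 residual degree of freedom beside 17.4 prior ones, over the 15081 probe sets with a mean log2 level at or above log2 of 100, with Benjamini-Hochberg adjustment and a threshold of 0.05. The contrast with K4 used 8 arrays. The fit was tested on simulated data. No outcome of that test is given here, so it is no evidence for the p-values on these arrays. Probe sets were named from the platform annotation: 20826 had 1 gene, 436 several and 9780 were not listed; 20758 were matched to the current rat gene table (GRCr8), which renamed 0. Each gene took the probe set whose mRNA level was highest on average. Rank correlations across genes carry no p-value. Named genes were the 10 each way with the largest smaller-of-2-hearts difference among properly named, tested genes above the floor, a set of heart failure and K9 machinery genes, and the 2 highest and 2 lowest members of each of 34 lists; other called members are named after their values were seen. Members and lists were chosen with earlier results of these data known. Alternatives were the scaling, the floor, the filter, the block, the arrays in the fit, the trend and the probe set rule.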

Additional observations from a re-analysis of the deposited data

Results flagged for a closer look

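These results are shown because the failed and the normal heart lay on opposite sides of 0; with 1 array per mark and heart the difference between the hearts was not tested. Lists were taken with 5 or more tested members and a difference between the hearts of at least 0.5, and single genes of the K9 machinery and heart failure groups with at least 1. In 5 such lists the median K9me3 minus K9me2 of the tested members was below 0 in the failed heart and above 0 in the normal heart. The failed minus normal value was -0.62 for protocadherin genes, -0.67 for histone genes, -0.57 for mitochondrial ribosomal protein genes, -0.64 for cardiac transcription factors and -0.52 for smooth muscle markers, beside a median change of -0.18 over all tested genes. With the mean over probe sets the hearts no longer lay on opposite sides for the cardiac transcription factors (0.25 in the failed heart and 0.34 in the normal heart). The same held for the histone genes with the mean (-0.55 and -0.11) and as deposited (-0.49 and -0.0012). It also held for the smooth muscle markers after quantile normalization (-0.21 and -0.0056). Over all measured members, tested or not, the medians were 0.10 and 0.44 for mitochondrial ribosomal protein genes and 0.0 and 0.16 for protocadherin genes. They were reversed for cardiac transcription factors (0.16 and -0.13). Histone genes (-0.57 and 0.0042) and smooth muscle markers (-0.15 and 0.80) kept the pattern there. Of single genes, Acta1, the skeletal actin of fetal and stressed heart, stood 2.37 higher in the failed heart (1.20 in the failed heart and -1.17 in the normal heart), with mRNA levels of 6967 and 1839. Hspbap1 stood 2.26 higher, Atf7ip, a partner of Setdb1, 1.20 higher, and Cbx5, heterochromatin protein 1 alpha, 1.12 higher. The chromatin remodeller gene Atrx had a failed minus normal value of -1.91 and Mphosph8, a reader of K9me3, one of -1.39. Each of these values rests on the probe set that represents the gene. In another tested probe set the hearts lay on the same side of 0 for Atrx (0.35 in the failed heart and 0.95 in the normal heart) and for Atf7ip (0.75 and 1.03). That of Mphosph8 kept them on opposite sides (-1.22 and 0.44).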

How the results depend on the processing

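The 20 leading genes kept their call and direction with the values as deposited, after quantile normalization and with a floor of 50. They were chosen from the same values for large differences in both hearts, so this says little about robustness. With the mean over a gene's probe sets 14 of the 16 that could be compared kept their call and direction. Most of those 14 have a single probe set, so the mean left their difference as it was. Leng1, Zfp180 and Rsrp1, which have more than 1, kept the call, while Klf2 (1.27, adjusted p = 0.066) and Tp63 (-1.40, adjusted p = 0.060) lost it. Atp5po, Srsf11, Sec24c and Srsf1 could not be compared, because their mean over probe sets fell under the level filter. Counts of calls moved more; where no cause is named it was not tested. Higher with K9me3 were 1158 probe sets with the values as deposited, 1215 after quantile normalization, 1184 with all 16 chromatin arrays in the fit, 266 with no replicate block and 0 without the level filter, against 611. Higher with K9me2 were 1060, 1047, 848, 75 and 0 under the same settings and 532 with a floor of 50, against 336. limma's prior degrees of freedom became infinite with the values as deposited and after quantile normalization. Without the filter the smallest adjusted p was 0.204. Of the 947 probe sets called, 945 were called the same way as deposited, 941 after quantile normalization and 341 with no replicate block. As deposited and after quantile normalization many more probe sets were called, so the overlaps of 945 and 941 are no measure of robustness. Genes 2-fold apart in both hearts were 994 and 583 without the filter, and 704 to 1160 for K9me3 and 759 to 761 for K9me2 when 1 heart was left out, since a single heart then decides; limma has no residual degree of freedom there and was not run. The contrast with K4 gave 273 higher genes as deposited and 147 after quantile normalization, against 536, and 682 lower genes as deposited, against 189. The rho with mRNA in the failed heart was 0.32 over tested genes only and 0.30 as the median of the pre-IP groups, and in the normal heart 0.26 with the probe set of highest pre-IP level, against 0.26 and 0.31. Of 136 list medians under these settings 126 moved by less than the spread between hearts of the same list. That count is no measure of robustness, since a list on which the hearts differed widely passes easily. A floor of 50 left nearly all medians unchanged, and the values as deposited moved each by nearly the same small amount. The sign changed for 3, all with the mean over probe sets: cardiac transcription factors (0.29, against -0.01), imprinted genes (-0.08, against 0.10) and smooth muscle markers (0.06, against -0.02). Genes under the level filter, where signal is closest to background, were not tested.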

Other observations

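Probe sets with no listed gene, or with several, behaved unlike the named genes in their balance: of 4675 tested, 147 (3.14%) were higher with K9me3 and 146 (3.12%) with K9me2. Cell type markers showed 1 call each among 7 tested fibroblast genes (14.3%) and 6 tested endothelial genes (16.7%), beside 4.29% of all tested genes. The other members did not share a direction. Of the fibroblast markers 2 lay above and 2 below 0 in both hearts, and of the endothelial markers 3 above and 2 below. Tcf21, a fibroblast transcription factor, had 1.15 in the failed heart and 2.26 in the normal heart (limma, adjusted p = 0.033), and Egfl7, a secreted endothelial protein, had 1.53 and 2.06 (adjusted p = 0.024). Of 6 tested macrophage and leukocyte markers 4 lay below 0 in both hearts and 0 were called, and both tested red blood cell genes lay below 0 in both hearts. The glycolysis gene Ldhb was higher with K9me3 (1.68 and 1.33, adjusted p = 0.036), and Slc2a1, the basal glucose transporter, had 3.07 in the failed heart and -0.42 in the normal heart without passing.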
